A study of Homo sapiens with 9 samples.

Results

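Both mutant forms of calreticulin (CALR), Del52 and Ins5, were pooled and set against the wild-type form in K562, a long-established line of human leukaemia cells that make globins. All 9 arrays of the series enter this comparison: 6 mutant arrays (3 Del52 and 3 Ins5) and 3 wild-type arrays, read across 18239 genes. A gene was singled out where all 6 mutant values lay on the same side of all 3 wild-type values. In every group the cells had been given 1 of the 3 CALR forms by retroviral transduction in 4 rounds, 1 every 12 h, followed by 36 h of culture. Transduced cells were then picked by magnetic beads through the NGFR surface marker, with a purity above 90% at 48 h after selection. Every group used here carries a transduced CALR, and the cells keep the CALR of the line itself. Nothing in the labels says that the 3 arrays of a group came from separate cultures, so p-values measure the spread between these samples, which may be technical. In bulk RNA, fewer cells that make a transcript and less of it per cell cannot be told apart.

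Calreticulin is a chaperone of the endoplasmic reticulum (ER). It holds newly made glycoproteins until they fold, buffers ER calcium, and is kept in the ER by a C-terminal KDEL signal that receptors of the early Golgi recognise. Frameshift mutations of its last exon, found in myeloproliferative neoplasms, replace that end and remove the signal. The ER answers misfolded protein through the unfolded protein response, run by the sensors ATF6, IRE1 (gene ERN1) and PERK (gene EIF2AK3), whose targets include chaperones, disulfide isomerases and parts of the secretory machinery. By its title the study asked about this response and about oxidative stress.

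Values are log2 expression, RMA values of the authors, with 1 probe set per gene. A few facts of the arrays bear on all that follows. First, the replicate numbers tie the groups together: in all 49386 probe sets the mean over the 3 arrays that share a number was the same for numbers 1, 2 and 3, with a largest spread of 6.66667e-05. With the numbers shifted between groups the median spread was 0.118677 and 0 probe sets met the tolerance of 0.0001. Values look like this after a replicate effect has been subtracted, and no source used here records such a step. A high wild-type array is therefore matched by low mutant arrays of its number. The limma fit without a block counts 6 residual degrees of freedom, and the fit with the replicate block has the 4 that remain. The fold changes are identical in both. Second, wild-type arrays 2 and 3 stood at opposite ends of the first principal component, which held 70.5% of the variance, with scores of 0.57 and -0.57 against -0.30 to 0.30 for the 6 mutant arrays. In addition, the mean of the hybridisation spikes was 8.80 to 8.89 on the mutant arrays and 8.72 to 8.82 on the wild-type arrays, and its part in the differences was not tested. The 3' minus 5' signal of actin, a sign of RNA quality, overlapped, at 1.18 to 1.38 in mutants and 1.08 to 1.39 in wild type. Among K562 markers, HBG1, HBE1, HBZ and TFRC lay above the 99th percentile of genes, GATA1, KLF1, TAL1, NFE2 and LMO2 lay between percentiles 90.3 and 92.03, and EPOR lay at percentile 47.3.

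The transduced gene was read first. The brightest CALR probe set read 7.61, 7.25 and 7.40 in Del52, 7.48, 7.47 and 7.26 in Ins5, and 7.29, 7.67 and 7.73 in wild type. The groups overlapped, and the log2 fold change of both mutants over wild type was -0.15 ± 0.12 (SE, limma adjusted p = 0.844). A second, dimmer CALR probe set went the other way, at 4.33 in mutants and 3.86 in wild type, and there all 6 mutant arrays lay above all 3 wild-type arrays. Whether either probe set reads the transduced sequence is not known from the labels, so CALR does not check the labels here. NGFR, the selection marker, read 3.34 to 3.48 in mutants and 3.33 to 3.43 in wild type, below the median gene (4.31) in every group.

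No gene passed. Limma with Benjamini-Hochberg adjustment called 0 of 18239 genes (0.0%) at 0.05 without the block and 0 (0.0%) with it, and the smallest adjusted p was 0.390 and 1.00 respectively. At an unadjusted p under 0.05, limma without the block held 1454 genes (7.97%), 924 higher and 530 lower in the mutants, and limma with the replicate block held 436 (2.39%), fewer than the 912 that an even spread of p would give. All genes named below are thus described by their values, and none is a call. All 6 mutant arrays lay above all 3 wild-type arrays in 504 genes (2.76%) and below them in 230 (1.26%), together 734 genes (4.02%). These genes are called separated in what follows. Of the 734, 631 had an unadjusted limma p under 0.05 without the block and 313 with it. The rule that chose them reads the same arrays and favours a small p, so these counts add no support.

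**Figure D1:**
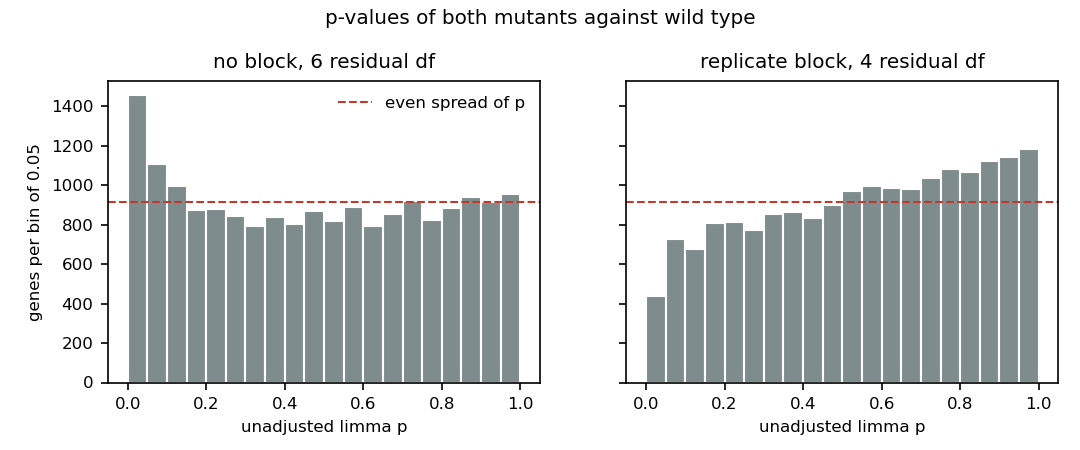
Histograms of the unadjusted limma p of 18239 genes in bins of 0.05, without a block (left, 6 residual degrees of freedom) and with the replicate block (right, 4). The dashed line is an even spread, 912 genes per bin; the first bin holds 1454 genes on the left and 436 on the right.

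The separated genes differed little in size. The median log2 fold change was 0.13 among those above and -0.15 among those below, and the median gap between the nearest mutant and wild-type arrays was 0.026 and 0.028. Only 7 separated genes were past 0.5 in size, and all 7 were lower in the mutants. Most of the upper set was dim: 355 of the 504 genes above lay at or under the median gene level, against 109 of the 230 below. The balance of directions depended on the scale. The share above was taken among the genes separated under each scaling, so the gene sets differ. It was 68.7% of the 734 as deposited, 37.9% with array medians centred (292 above, 479 below) and 48.9% after quantile normalization (409 below). The median fold change of all genes was 0.0154 as deposited, and centring moved it by -0.022. Of the 504 genes above, 279 stayed above under centring and 329 under quantile normalization, and of the 230 below, 226 and 207 stayed below.

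**Figure D2:**
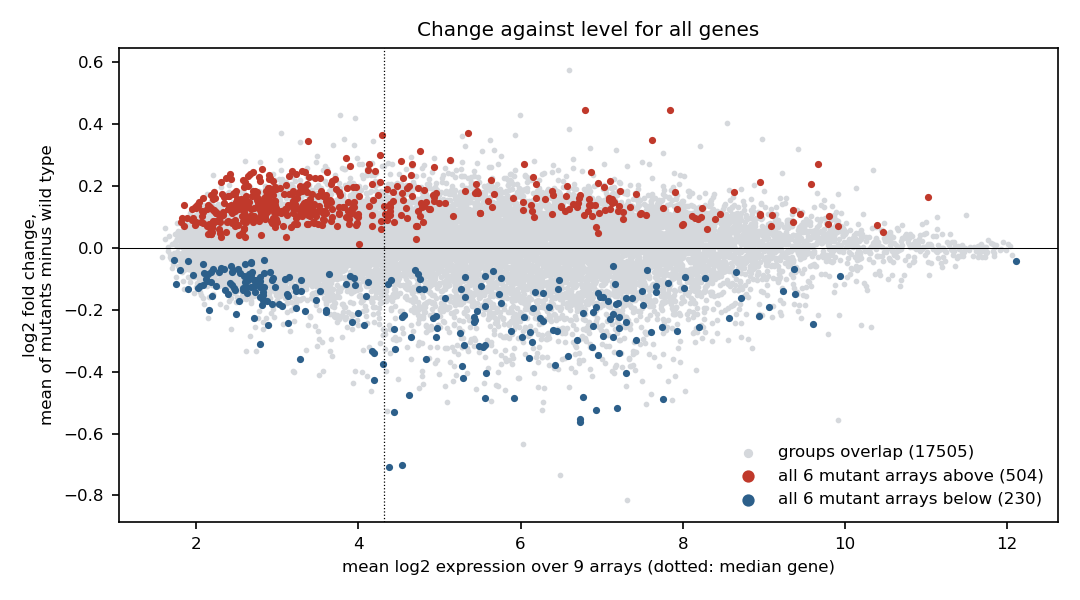
Each point is 1 gene: mean log2 expression over 9 arrays (x) against the log2 fold change of both mutants over wild type (y), with the 504 genes whose mutant arrays are all above in red and the 230 whose mutant arrays are all below in blue. The dotted line is the median gene (4.31); 355 of the red points lie at or under it, and the points furthest from 0 among the coloured ones are lower.

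Genes of ER-Golgi transport and KDEL retrieval leaned lower in the mutants. Of 41 measured members, 35 had a negative and 6 a positive fold change, 4 were separated below (9.76%, against 1.26% of all genes) and 0 above. The median log2 fold change of the list was -0.10, with -0.10 for Del52 and -0.12 for Ins5 each over the same wild-type arrays, beside 0.0154 for all genes. At an unadjusted p under 0.05, limma held 9 members, all lower, without the block and 4 with it. Among all 18239 genes it held 530 lower ones without the block, and 436 (2.39%) in either direction with it. The direction count was 37 lower and 4 higher with array medians centred, and 35 and 6 after quantile normalization. Averaged over the list and set against each gene's own mean, the arrays read -0.035, -0.0023 and -0.069 in Del52, -0.067, -0.0015 and -0.094 in Ins5, and 0.10, 0.0038 and 0.16 in wild type. All 6 mutant arrays lay below all 3 wild-type arrays, but in number 2 the groups were nearly level. The list's median fold change was -0.13 in number 1, 0.024 in number 2 and -0.19 in number 3. The median was -0.057 without wild-type array 3 and -0.16 without wild-type array 2. In the other 28 lists the averages of mutant and wild-type arrays overlapped.

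The lower members included both vesicle coats. Of the 12 measured genes of the COPII coat, which buds vesicles off the ER, 10 were lower, with SAR1A (0.05) and SAR1B (0.04), the GTPases that start the coat, as the exceptions. SEC23A, an inner COPII subunit, read 6.78, 6.75 and 6.90 in Del52, 6.67, 6.80 and 6.74 in Ins5, and 7.19, 7.09 and 6.996 in wild type. Its highest mutant array lay 0.098 below its lowest wild-type array, for a log2 fold change of -0.32 ± 0.057 (SE, limma adjusted p = 0.467 without the block and 1.00 with it). All 3 of its other probe sets were lower too, and 1 of them was separated. SEC24D, a cargo-binding COPII subunit, read 4.52, 4.49 and 3.79 in Del52, 4.15, 4.42 and 4.43 in Ins5, and 4.93, 4.69 and 5.38 in wild type. Its fold change of -0.70 ± 0.20 had the second largest size among the separated genes brighter than the median gene, but its 2 other, dimmer probe sets read 0.034 and -0.11. The paralogue SEC24A was lower by a fold change of -0.26 ± 0.090 without being separated.

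Of the 8 genes of the COPI coat, which returns escaped ER proteins from the Golgi, 7 were lower, all but COPG2 (0.02), which was lower as well once medians were centred. COPB2, a COPI subunit, read 7.71 to 7.86 in the mutants and 7.89 to 7.91 in wild type, a fold change of -0.11 ± 0.037. ARF1, the GTPase that recruits COPI, read 9.84 to 9.97 in the mutants and 9.98 to 10.04 in wild type, a fold change of -0.091 ± 0.040, and it was no longer separated under centring or quantile normalization. Both KDEL receptors measured were lower, KDELR1 at -0.071 ± 0.035 and KDELR3 at -0.15 ± 0.061. All 6 measured p24 cargo receptors were lower, with a median of -0.078, none of them separated. The Golgi tethers GOLGA5 (-0.29), GOLGB1 (-0.34) and GOLGA2 (-0.16), the cargo receptor LMAN1 (-0.26) and the SNARE protein BET1 (-0.34) were lower and not separated. These subgroups, and the members named here beyond the first 4 by p, were chosen after their values were seen.

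ER chaperones and folding enzymes showed a few higher members rather than a shift of the list. Of 40 measured, 25 were higher and 15 lower, with a median log2 fold change of 0.032 as deposited and 0.010 with array medians centred. In this list 4 members were separated above, HYOU1, PDIA6, MANF and HSP90B1 (10.0%, against 2.76% of all genes), and 1 below, DNAJB9 (2.5%, against 1.26%). With array medians centred 3 were separated above, all but HSP90B1, and 1 below. At an unadjusted p under 0.05, limma held 10 higher and 1 lower member without the block, and 6 and 1 with it. Among all 18239 genes it held 924 higher and 530 lower without the block, and 436 (2.39%) in either direction with it. HSP90B1 falls outside the naming rule, which takes 4 per list, and was added after its values were seen.

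HYOU1, a large chaperone that exchanges the nucleotide of BiP, read 9.05, 8.99 and 8.99 in Del52, 9.08, 9.01 and 9.03 in Ins5, and 8.74, 8.86 and 8.84 in wild type. Its mutant arrays formed a tight band whose lowest value was 0.13 above the highest wild-type array, and the fold change was 0.21 ± 0.041 (SE, limma adjusted p = 0.467 without the block and 1.00 with it). All 8 of its other probe sets had the same sign, from 0.035 to 0.30, and none was separated. PDIA6, a disulfide isomerase, read 9.60 to 9.72 in the mutants with a median of 9.65, against 9.37, 9.55 and 9.41 in wild type, for a fold change of 0.21 ± 0.050. Its 2 other probe sets read 0.21 and 0.22, and the second of these was separated too. MANF, a small secreted ER stress factor, read 8.34, 7.99 and 7.92 in Del52, 7.91, 7.92 and 7.87 in Ins5, and 7.28, 7.62 and 7.74 in wild type, a fold change of 0.44 ± 0.12. It is read by a single probe set, and Del52 array 1 stood well above the other mutant arrays. HSP90B1, the ER member of the HSP90 family also called GRP94, read 11.01 to 11.23 in the mutants and 10.82 to 10.99 in wild type. The groups did not overlap as deposited, with a fold change of 0.16 ± 0.061, and overlapped with medians centred.

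DNAJB9, a co-chaperone of BiP that is itself a target of the IRE1 branch, went the other way. It read 6.80, 6.65 and 6.58 in Del52, 6.88, 6.65 and 6.95 in Ins5, and 7.09, 7.48 and 7.25 in wild type. The fold change was -0.52 ± 0.10 (SE, limma adjusted p = 0.467 without the block and 1.00 with it), and a second probe set was separated as well, at -0.50. HSPA5, which encodes BiP itself, was higher on average by 0.19 ± 0.083, but its groups overlapped (10.1 to 10.3 in mutants, 9.85 to 10.2 in wild type). DNAJB11 (0.40 ± 0.13) and CRELD2 (0.28 ± 0.089) were higher with overlap, as was PDIA3 (0.35 ± 0.085), the isomerase that works with calreticulin, where 1 mutant array at 8.90 lay under wild-type array 3 at 8.93.

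The promoters of these genes are shown because ATF6 and XBP1, the factors activated through the sensors, are known to act through short elements in such windows. The 250 bases before the RefSeq start (GRCh38.p14) are printed in lower case, on the strand of the gene, with matches in capitals. The motifs searched on both strands were ERSE (CCAAT and CCACG, 9 bases apart), ERSE-II (ATTGG and CCACG, 1 base apart) and the UPRE core (TGACGTG). HYOU1 lies on chr11:119057206-119057455 (minus strand), the second start of PDIA6 on chr2:10812786-10813035 (minus strand), HSP90B1 on chr12:103930160-103930409 (plus strand), MANF on chr3:51385041-51385290 (plus strand) and DNAJB9 on chr7:108569624-108569873 (plus strand).
HYOU1: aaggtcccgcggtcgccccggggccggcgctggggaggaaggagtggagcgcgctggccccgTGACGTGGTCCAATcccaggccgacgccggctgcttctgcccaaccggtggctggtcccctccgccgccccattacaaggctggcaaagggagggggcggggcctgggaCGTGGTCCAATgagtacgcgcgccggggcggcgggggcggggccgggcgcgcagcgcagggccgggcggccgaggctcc
PDIA6: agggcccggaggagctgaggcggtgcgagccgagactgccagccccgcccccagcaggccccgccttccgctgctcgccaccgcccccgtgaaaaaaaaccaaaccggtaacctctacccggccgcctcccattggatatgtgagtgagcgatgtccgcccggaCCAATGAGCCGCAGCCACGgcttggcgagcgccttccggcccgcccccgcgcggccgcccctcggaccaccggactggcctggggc
HSP90B1: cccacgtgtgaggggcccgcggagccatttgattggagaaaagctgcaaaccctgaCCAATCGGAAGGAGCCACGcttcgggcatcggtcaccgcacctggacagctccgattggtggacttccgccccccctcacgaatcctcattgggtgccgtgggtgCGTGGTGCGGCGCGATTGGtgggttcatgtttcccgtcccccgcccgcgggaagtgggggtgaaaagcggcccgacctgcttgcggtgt
MANF: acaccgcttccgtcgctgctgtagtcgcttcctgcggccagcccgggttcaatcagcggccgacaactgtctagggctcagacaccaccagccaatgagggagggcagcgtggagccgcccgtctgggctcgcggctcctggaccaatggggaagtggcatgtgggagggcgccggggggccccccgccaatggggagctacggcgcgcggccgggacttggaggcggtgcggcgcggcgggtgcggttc
DNAJB9: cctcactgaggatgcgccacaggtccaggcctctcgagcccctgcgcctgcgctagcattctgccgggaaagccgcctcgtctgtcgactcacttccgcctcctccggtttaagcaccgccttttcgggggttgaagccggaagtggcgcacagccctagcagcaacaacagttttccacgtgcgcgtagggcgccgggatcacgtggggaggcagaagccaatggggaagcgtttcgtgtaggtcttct
The HYOU1 window holds 2 ERSE-II matches, the farther of which overlaps a UPRE core. The PDIA6 window holds 1 ERSE match and the HSP90B1 window 2, and the MANF and DNAJB9 windows hold none of these letters. The first start of PDIA6 holds none either and is not printed. Such matches also lie before genes that were not separated above: CALR and HSPA5 hold 1 ERSE each, and COPB2 and the first start of ARF1, both separated below, a UPRE core. Of 35116 promoters of this length, 0.0740% hold an ERSE, 0.0513% an ERSE-II and 1.68% a UPRE core. Counted by gene, the shares are 0.0916%, 0.0659% and 2.05% of 27305 genes. Of 390 separated genes above that have a promoter in the table, 2 hold an ERSE, 2 an ERSE-II and 13 a UPRE core, and of 187 below the counts are 0, 0 and 9. A match is a description of letters and not a bound site.

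Among 28 measured genes of ER calcium handling, 3 were separated above (10.7%, against 2.76% of all genes) and 0 below, while the list as a whole had 16 higher and 12 lower members and a median of 0.018. ATP2A2, the SERCA2 pump that fills the ER with calcium, read 9.78, 9.76 and 9.76 in Del52, 9.76, 9.80 and 9.67 in Ins5, and 9.45, 9.44 and 9.56 in wild type. Its mutant arrays lay at least 0.11 above the wild-type arrays, a fold change of 0.27 ± 0.044 (SE, limma adjusted p = 0.467 without the block and 1.00 with it). All 5 of its other probe sets were higher as well, by 0.19 to 0.36, and 3 of them were separated. SDF4, a calcium-binding protein of the Golgi lumen, read 7.04 to 7.11 in the mutants and 6.92, 6.95 and 6.99 in wild type, a fold change of 0.12 ± 0.033. RYR1, a calcium release channel, was dim (3.24 to 3.29 against 3.17 to 3.22), and quantile normalization ended its separation.

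**Figure D3:**
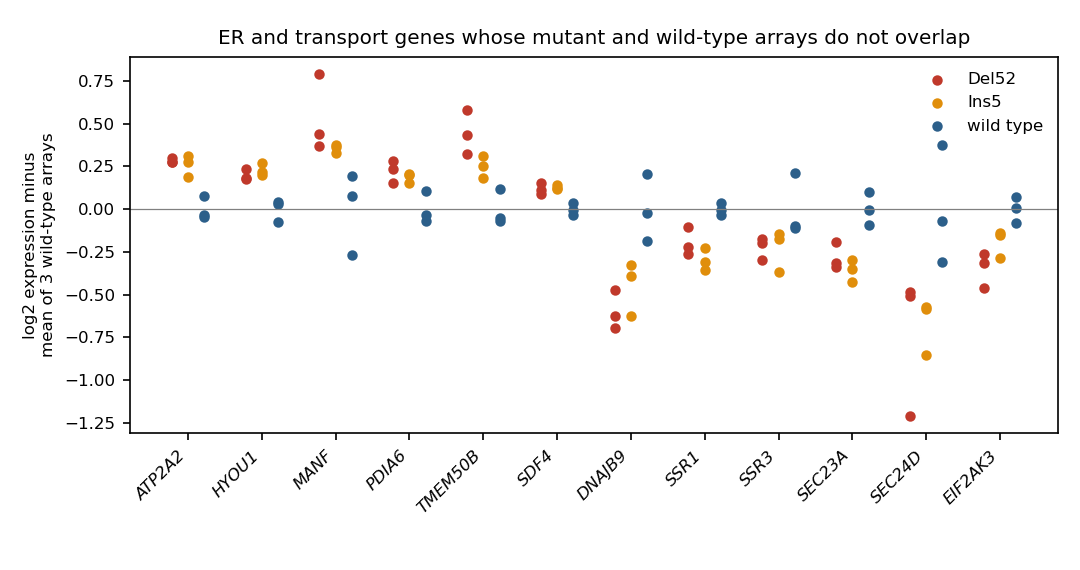
Log2 expression of 12 separated ER and secretory genes, each array minus the mean of the 3 wild-type arrays (y), with Del52 in red, Ins5 in orange and wild type in blue. In each gene the 6 mutant points lie on the same side of the 3 wild-type points; MANF has the highest mutant point and SEC24D the lowest, both from a single Del52 array.

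Genes that bring proteins into the ER and its membrane divided by complex. Of 39 measured, 18 were higher and 21 lower, with 2 separated above (5.13%, against 2.76% of all genes) and 2 below (5.13%, against 1.26%). All 4 subunits of TRAP, which assists the translocon, were lower: SSR1 at -0.25 ± 0.049, SSR3 at -0.23 ± 0.087, SSR2 at -0.15 and SSR4 at -0.061. SSR1 read 9.41 to 9.67 in the mutants with a median of 9.52, and 9.73, 9.76 and 9.80 in wild type. Of its 7 other probe sets 6 were lower too, and 1 was separated. SSR3 read 8.35 to 8.57 in the mutants and 8.61, 8.62 and 8.93 in wild type, with all 3 other probe sets lower and 2 of them separated. Its fold change was -0.12 without wild-type array 3. In the EMC, which inserts membrane proteins, 9 of 10 measured subunits were higher, all but EMC2 (-0.11). EMC4 read 8.93 to 9.03 in the mutants and 8.87 to 8.89 in wild type, a fold change of 0.11 ± 0.033. EMC1 read 6.92, 6.86 and 6.93 in Del52, 6.66, 6.75 and 6.66 in Ins5, and 6.64, 6.61 and 6.63 in wild type, so that Del52 carried most of its difference. EMC1 was no longer separated under centring, and its fold change was -0.00508 when all its probe sets were averaged. The counts for TRAP and the EMC were the same with array medians centred, and both complexes were picked out after their values were seen.

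Of the sensors of the unfolded protein response, EIF2AK3, the PERK kinase, was separated below. It read 5.80, 5.74 and 5.60 in Del52, 5.77, 5.92 and 5.91 in Ins5, and 6.07, 5.98 and 6.13 in wild type, a fold change of -0.27 ± 0.062 (SE, limma adjusted p = 0.486 without the block and 1.00 with it). Both of its other probe sets were separated below, at -0.46 and -0.29. ERN1 (0.085 ± 0.037), ATF6 (0.043 ± 0.13) and the transcription factor XBP1 (0.030 ± 0.26) overlapped between the groups. EIF2AK3 was the only separated gene among the 50 of the PERK-ATF4 stress response (2.0%, against 4.02% of all genes). Of the 50, 15 were higher and 35 lower. That list's median of -0.076 was not shared by the mutants (-0.20 for Del52 and 0.035 for Ins5, over the same wild-type arrays) and was 0.0034 without Del52 array 1. Of 30 genes of ER-associated degradation 1 was separated below (3.33%, against 1.26% of all genes) and 0 above. Of 20 genes of the calnexin-calreticulin cycle 1 was separated below (5.0%) and 1 above (5.0%, against 2.76% of all genes). The gene below is the same in both lists: ERLEC1, a lectin that takes misfolded glycoproteins to degradation (-0.13 ± 0.043). Its gap was only 0.0023. Its other probe sets read -0.15 and 0.049 and were not separated, and the average over all its probe sets was -0.076. CALR3, a testis paralogue of calreticulin, was separated above (0.22 ± 0.040) at 2.47 to 2.55 in the mutants, under the median gene. In N-glycosylation 0 of 34 genes were separated as deposited, and TMEM258, a subunit of oligosaccharyltransferase, had the smallest p (-0.13 ± 0.044). With medians centred 2 genes of this list were separated below, TMEM258 among them, and 0 above.

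Of 39 NRF2 targets 2 were separated (5.13%, against 4.02% of all genes). ABCC2, an export pump, was separated above (0.20 ± 0.043, at a dim 2.98 to 3.10) and NFE2L2, which encodes NRF2 itself, below. NFE2L2 read 8.65, 8.89 and 8.87 in Del52, 8.97, 8.92 and 8.91 in Ins5, and 9.21, 9.01 and 9.05 in wild type, a fold change of -0.22 ± 0.069. Of 45 antioxidant enzymes 33 were higher and 12 lower as deposited, beside 10559 of 18239 genes (57.9%) that were higher. With medians centred 26 were higher and 19 lower. As deposited 0 were separated, and with medians centred 0 above and 2 below, beside 292 and 479 of 18239 genes. GPX1, a glutathione peroxidase, had the smallest p of that list (0.17 ± 0.056) with overlapping groups.

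Protein turnover and mitochondrial genes were higher by small amounts, to be read beside the 57.9% of all genes that were higher as deposited. Of 43 proteasome subunits 39 were higher as deposited and 36 with medians centred, with a median of 0.065. PSMB4, a subunit of the 20S core, was the separated one (2.33%), at 9.40 to 9.43 in the mutants and 9.26 to 9.30 in wild type (0.12 ± 0.030). Of 68 genes of oxidative phosphorylation 58 were higher as deposited and 45 with medians centred, with a median of 0.036. UQCR11, NDUFB11, NDUFV2 and COX6C, subunits of respiratory complexes III, I and IV, were separated above (5.88%, against 2.76% of all genes) by 0.050 to 0.11, and all of them lost their separation under centring. COX6C was higher by 0.033 without wild-type array 2. Of 27 genes of antigen processing and MHC class I 20 were higher, with a median of 0.087, and 0 were separated.

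**Figure D4:**
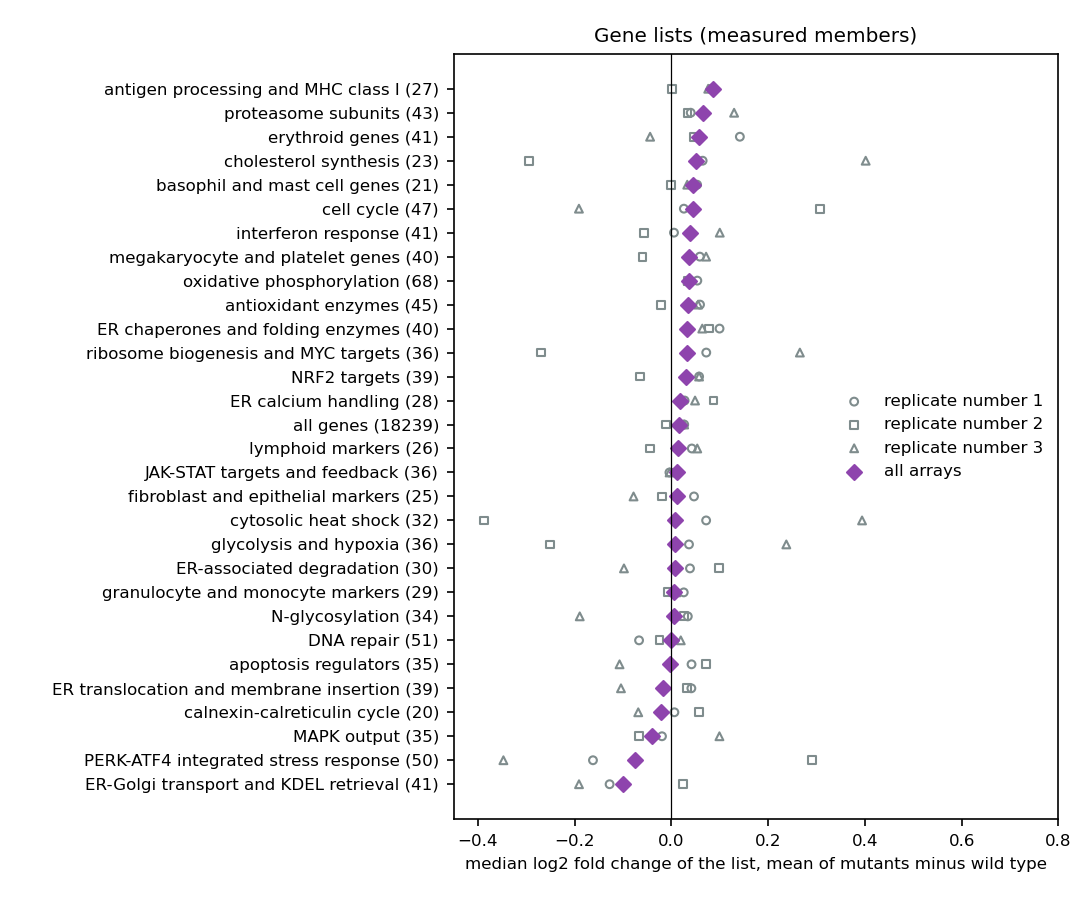
Median log2 fold change of both mutants over wild type for 29 gene lists and all genes, with the number of measured members in brackets; filled diamonds use all arrays and open symbols the 2 mutants and the wild type of a single replicate number. The ER-Golgi list has the lowest median (-0.10), and several lists, cholesterol synthesis and cytosolic heat shock among them, have opposite signs in numbers 2 and 3.

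In the remaining lists 0 to 2 genes each were separated as deposited, at most 5.71% of a list against 4.02% of all genes in either direction. ID1, a target of BMP and STAT5 signalling and the only separated gene of 36 in the JAK-STAT list, read 7.96, 7.90 and 7.95 in Del52, 7.99, 8.03 and 7.97 in Ins5, and 7.77, 7.79 and 7.80 in wild type (0.18 ± 0.033). In MAPK output (35 genes) it was EPHA4 (0.14 ± 0.046), in apoptosis regulators (35) BMF (0.17 ± 0.047) and AIFM1 (0.078 ± 0.030), and in cytosolic heat shock (32) DNAJB4 (-0.27 ± 0.057). In ribosome biogenesis and MYC targets (36) it was PA2G4 (0.074 ± 0.036, and 0.044 without wild-type array 3), and in interferon response (41) SAMD9L (-0.12 ± 0.035) and OAS2 (-0.10 ± 0.035). PA2G4 lost its separation under centring and quantile normalization, and EPHA4 under quantile normalization. Of 41 erythroid genes 31 were higher and BCL11A, a repressor of fetal globin, was separated above at a dim level (0.18 ± 0.057), a separation lost under centring. Of 40 megakaryocyte and platelet genes F2RL2, a thrombin receptor, was separated below (-0.21 ± 0.044), and of 21 basophil and mast cell genes HDC had the smallest p (0.43 ± 0.12) with overlapping groups. Cell cycle (47), DNA repair (51), cholesterol synthesis (23), and glycolysis and hypoxia (36) held 0 separated genes as deposited. In the order of these lists, the members of smallest p were GINS1 (0.16), FANCB (-0.19), INSIG2 (-0.21) and HK2 (0.19). With medians centred DNA repair, the JAK-STAT list and the lymphoid markers each held 1 gene separated below, beside 479 of 18239 genes.

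Markers of other cells were not shifted as lists. CD163 of 29 granulocyte and monocyte markers (0.11 ± 0.031), CD8A of 26 lymphoid markers (0.23 ± 0.049) and COL6A2 of 25 fibroblast and epithelial markers (-0.26 ± 0.031) were the ones separated as deposited. CD163 at 2.75 to 2.93 and CD8A at 3.15 to 3.28 in the mutants were both under the median gene, and CD163 lost its separation under quantile normalization. The list averages of mutant and wild-type arrays overlapped for all 3 marker lists, with median fold changes of 0.0049, 0.013 and 0.011.

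Outside the lists, the genes with the smallest p among those above were led by CACNB1, a calcium channel subunit, and SNN, a small membrane protein. CACNB1 read 4.30, 4.25 and 4.30 in Del52, 4.40, 4.50 and 4.45 in Ins5, and 4.10, 4.05 and 4.05 in wild type (0.30 ± 0.036, limma adjusted p = 0.390 without the block and 1.00 with it). The other, dimmer probe sets of CACNB1 read 0.17, 0.026 and 0.0092, the first of them separated, and averaging all its probe sets gave 0.13. SNN read 4.35 to 4.52 in the mutants and 4.15, 4.02 and 3.97 in wild type (0.37 ± 0.053), with 3 dimmer probe sets at 0.032 to 0.10. TMEM37, TMEM8B, FUZ, ITGAL and NPFF were higher by 0.18 to 0.24. All 3 other probe sets of ITGAL were lower, and averaged over all its probe sets ITGAL was higher by 0.0032. TMEM50B, a membrane protein, was higher by 0.35 ± 0.069, with 3 of 3 other probe sets higher and 2 separated. EXOSC6, a subunit of the RNA exosome, had the largest fold of the upper set, 0.44 ± 0.11, from 0.64 in Del52 and 0.25 in Ins5. PWWP3A (0.37, and 0.22 without wild-type array 3), CALML4 (0.31), the lysosomal mannosidase MAN2B1 (0.28) and GSX2 (0.22) complete the upper names. Averaged over all probe sets of the gene, PWWP3A was higher by 0.17 and CALML4 by 0.086.

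Among genes below, COL6A2, a collagen VI chain, had the smallest p of all genes. It read 4.31, 4.29 and 4.35 in Del52, 4.39, 4.41 and 4.37 in Ins5, and 4.63, 4.61 and 4.60 in wild type (limma adjusted p = 0.390 without the block and 1.00 with it), yet its 3 other, dimmer probe sets read -0.011, -0.0045 and 0.069. Zinc finger genes recurred. ZNF292 had the widest gap of all separated genes, 0.32, reading 6.39, 6.63 and 6.58 in Del52, 6.41, 6.59 and 6.64 in Ins5, and 7.39, 6.96 and 6.96 in wild type (-0.56 ± 0.11). Of its 4 other probe sets 3 were separated below as well, at -0.62, -0.51 and -0.47. ZNF436 (-0.36 ± 0.049), ZNF624 (-0.31 ± 0.050) and the zinc finger gene RLF (-0.48 ± 0.098) were separated below. CCDC186 (-0.71 ± 0.20), PIK3C2A, a lipid kinase of endocytosis (-0.55 ± 0.23), and TMF1, a Golgi coiled-coil protein (-0.53 ± 0.19), had large folds with narrow gaps of 0.0056, 0.068 and 0.013. In each of these, wild-type array 1 was the highest, at 5.33, 7.69 and 5.24, and without it the folds were -0.47, -0.26 and -0.31. Quantile normalization ended the separation of CCDC186, and also that of PRRC1, named next. TAF4B (-0.29) and BTAF1 (-0.30), both partners of the TATA-binding protein, AFTPH (-0.22) and PRRC1 (-0.26), both linked to Golgi and ER exit traffic, and DENND10, AASDH and KLHL15 (-0.22 to -0.19) complete the lower names.

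**Figure D5:**
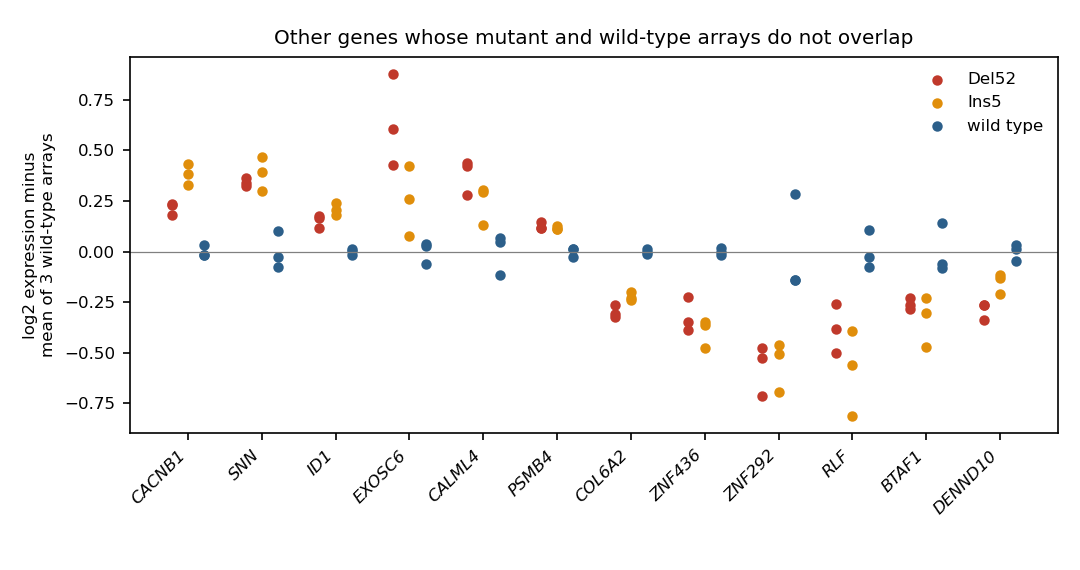
Log2 expression of 12 further separated genes, each array minus the mean of the 3 wild-type arrays (y), with Del52 in red, Ins5 in orange and wild type in blue. CACNB1 is higher in Ins5 than in Del52 and EXOSC6 higher in Del52, whereas ZNF292 has the same range in both mutants.

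The number of probe sets that repeat a reading limits these names. Of the 65 separated genes named, 53 have another probe set, and of their 133 other probe sets 107 had the same sign and 33 were separated in the same direction. In 4 of the 53, ITGAL, PWWP3A, RYR1 and TMEM37, every other probe set had the opposite sign. Averaging all probe sets of a gene moved the fold change by over 1.5 times in 28 of the 53. Under median centring 57 of the 65 stayed separated, and under quantile normalization 55. At an unadjusted p under 0.05 in the limma block fit there were 46. Separation and a small p were among the rules that named these genes, so this count adds no support.

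Del52 and Ins5 were read side by side because a pooled mean can hide a difference between them. Both comparisons share the 3 wild-type arrays, and in a separated gene the 2 mutants have the same sign by the rule itself. Between the mutants, 45 of the 734 separated genes had an unadjusted limma p under 0.05 for Del52 minus Ins5. The smallest adjusted limma p among the 734 was 0.841. EMC1 was higher by 0.28 in Del52 and 0.062 in Ins5, CD163 by 0.040 and 0.19, and CACNB1 by 0.22 and 0.38. TAF4B was lower in both, at -0.19 and -0.38. These 4 were among the separated genes with that smallest adjusted p. For HYOU1 (0.20 in Del52 and 0.23 in Ins5), ATP2A2 (0.28 and 0.26), SEC24D (-0.73 and -0.67) and ZNF292 (-0.57 and -0.56) the adjusted p of the difference was 1.00, which does not show that the mutants act alike.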

How the data were processed

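The deposited file holds log2 expression values per probe set for 9 Affymetrix arrays. Per the submitters' processing notes the authors used Partek and RMA, a method of background correction, normalization and probe summary. No version, setting or build is recorded in the labels. Of 49386 probe sets, 93 controls, 1327 with several symbols and 2713 with none were left out. The brightest of the 45253 with 1 symbol stood for its gene, which left 18239 genes; 45172 of the 45253 probe sets matched RefSeq by gene identifier.

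All 9 arrays entered 1 limma fit (limma 3.58.1, R 4.3.3) with a mean per group. The contrast was the mean of Del52 and Ins5 minus wild type, two-sided, with Benjamini-Hochberg adjustment over all genes and a threshold of 0.05. SE is the moderated standard error of this fit without a block, and the SE with the replicate block is a median 1.23 times as large. The same fit with the replicate number as a block is printed beside it, because the means of the replicate numbers are equal in every probe set and 2 degrees of freedom are already used. The correlation check of the pairing is void for that reason: over 9 same-number pairs, deviations correlated at -0.923 to 0.643. Arrays give no read depth, so their number limits precision. The 23 antigenomic controls spanned 1.56 to 6.35, so no single background floor was set.

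The members and the 29 gene lists (1132 entries, 1058 measured) were chosen with earlier results of these data known. Named genes were CALR and NGFR, the 10 smallest p per direction among separated genes, the 6 largest folds and 6 widest gaps per direction among separated genes above the median level, and up to 4 separated members per list, otherwise its smallest p. Figures and promoter searches used Python 3.11.15. The alternatives were a 2-group fit, the replicate block, the first principal component, other scalings, probe set rules, variance models and arrays left out.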

Additional observations from a re-analysis of the deposited data

Results flagged for a closer look

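In 6 of the 75 named genes, 1 of the 6 mutant arrays stood far from the other 5 by Dixon's criterion, which chance meets in about 1 group in 20. Ins5 array 3 was low for ATP2A2 (9.67), and Ins5 array 1 was low for TMF1 (3.795) and BTAF1 (7.15). Del52 array 1 was high for MANF (8.34) and low for RYR1 (3.24) and NFE2L2 (8.65). All 6 genes were named because they are separated, so their wild-type arrays lie on 1 side of all 6 mutant arrays by the rule itself.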

How the results depend on the processing

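At adjusted p under 0.05, where limma gave 0 genes, 68 were held with the first principal component as covariate (31 higher, 37 lower; 0 once the replicate block was added), 8 with unmoderated variances and 6232 with array weights, whose estimation did not converge and gave wild-type array 1 a weight of 67.0; leaving out any 1 array gave 0. At unadjusted p under 0.05 the main 1454 of 18239 genes became 436 with the replicate block and 3680 with the first principal component. The count became 8243 with array weights, 421 among only the genes above the median level and 3467 over 45253 single probe sets. The last 2 thus have other totals. Against the block's 436 the count became 130, 1524 and 877 with the arrays of number 1, 2 or 3 left out of every group. Against 1454 it became 877 without wild-type arrays 2 and 3 together, which assumes that the lone wild-type array varies like the other groups; the range was 1030 to 1830 with 1 array left out. The replicate block changes no fold. The 504 genes above became 292 with medians centred, 149 above the median level, 1099 over single probe sets, 1336, 3010 and 2286 without number 1, 2 or 3, and 2996 without wild-type arrays 2 and 3. The 230 below became 479, 121, 611, 985, 1646, 1578 and 1902 in the same order, and 409 after quantile normalization. Fewer arrays make separation easier by construction, and the counts above the median level and over single probe sets again have other totals. With 1 array left out the counts were 583 to 1384 above and 259 to 828 below; those past 1.5 times came without wild-type array 1 (881 and 521), 2 (1384 and 828) or 3 (1064 and 721). With each mutant array set against the wild-type array of its own number, 687 genes were above and 294 below in all 3 numbers. Of 1783 values of named genes under 24 alternatives, 1699 kept direction and side of the threshold, 80 passed it and 4 reversed: CALR with array weights (0.16), all probe sets averaged (0.15) and wild-type arrays 2 and 3 left out (0.12), and EMC1 with all probe sets averaged (-0.00508). For 65 of these 75 genes the rule that chose them fixes the sign when arrays are left out, so this is no sign of stability. Apart from those stated, the cause was not tested. The alternatives with numbers left out and matched numbers were added after the data were seen.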

Other observations

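With the first principal component as covariate and no block, 68 genes had an adjusted limma p under 0.05, and 17 of them were separated as deposited. That component was computed from the same 9 arrays, and with the replicate block added the count was 0 and the smallest adjusted p 0.594.

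Zinc finger genes whose symbol starts with ZNF were counted after ZNF292, ZNF436 and ZNF624 had been seen. Of 495 such genes 319 were lower in the mutants, with a median log2 fold change of -0.04, 15 were separated below (3.03%, against 1.26% of all genes) and 9 above (1.82%, against 2.76%). They were picked after the values were known, so these counts are a description.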
